A study of Mus musculus with 16 samples.

Results

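The step from pachytene spermatocytes to round spermatids was followed in open chromatin of male germ cells that lack Scml2, in the 4 libraries of that genotype at these stages out of 16 in the series. The members are the autosomal ATAC-seq peaks of 2 libraries of Scml2 knockout pachytene spermatocytes (PS_KO) and 2 of Scml2 knockout round spermatids (RS_KO), all from testes of adult C57BL/6 mice. ATAC-seq uses the Tn5 transposase to cut and tag accessible DNA, so that a peak marks a stretch of open chromatin. The 4 matching wild-type libraries (PS_WT and RS_WT, adult C57BL/6) and the 8 spermatogonial libraries (Thy1+ and c-Kit+ fractions of both genotypes, age P7) serve below only as libraries that did not choose the regions. About 250000 spermatocytes or 1000000 spermatids went into a library, so cell number and stage cannot be told apart. How the Scml2 allele was made, and whether replicates came from separate animals, is not given in the sources used here, so the spread between replicates may be technical.

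Pachytene spermatocytes are in meiotic prophase, when homologous chromosomes are paired along the synaptonemal complex and exchange DNA. After the meiotic divisions the cells become haploid round spermatids, which build the acrosome and the tail and start to make the transition proteins and protamines that later replace histones. SCML2 is a germ-cell member of the Polycomb-related proteins, known for its part in the chromatin of the sex chromosomes and in switching from the spermatogonial to the meiotic and later gene programme. The comparison asks how open chromatin differs between these stages when SCML2 is absent.

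The peak lists held 105173 and 21734 autosomal peaks in PS_KO and 163610 and 26914 in RS_KO, replicates 1 and 2. Replicate 1 therefore had the longer list at both stages, and the number of reads behind each list is unknown here. Merging the overlapping peaks of the 4 lists gave 213503 regions, of 211 bp at the median. Because list length differs so much, presence is compared in the lists as deposited and in lists of equal length, each holding the 21734 peaks with the highest −log10 q. No peak lay within 1000 bp of the annotated start of Scml2 itself (chromosome X, 161162772) in any of the 4 knockout libraries, while PS_WT had a fold enrichment of 6.19 there in replicate 1 and no peak in replicate 2, and RS_WT 4.98 in replicate 1 and no peak in replicate 2. Both Thy1+ knockout libraries had a promoter peak at Scml2 (fold enrichment 11.7 and 7.15), so this promoter does not check the genotype. Genes that every cell uses were open in all 4 libraries at a like rate: 27 of 28 housekeeping genes had a promoter peak in each library as deposited.

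The promoter sequences are shown for the genes that lead the comparisons and have an entry in RefSeq's table (assembly GRCm38.p6, the patch release of mm10), as the 150 bases just before the transcription start site (TSS), 5′ to 3′ on the gene's strand. Capitals mark letters that match any of 10 motifs searched on both strands. These were the CRE TGACGTCA (short form TGACG), the RFX X-box (short form GTTGCCA) and the MYB motif TAACNGTC (short form AACNGTC). The others were the CTCF core, the TATA box TATAAA, the NR6A1 motif TCAAGGTCA and the SOX motif ACAATGG. The short CRE and MYB forms lie within the long ones, while an X-box need not hold the short RFX form. The first set holds promoters that had a strong peak only in spermatids, or a region that rose there, with Prm1, Tnp1 and Prm3 as the sperm chromatin genes. The window of Prm3 also holds a stronger region that did not rise. Their positions are Prm1 chr16:10796824-10796973 (- strand), Kif2b chr11:91577556-91577705 (- strand), Ppm1j chr3:104780906-104781055 (+ strand), Tnp1 chr1:73015900-73016049 (- strand), Prm3 chr16:10790915-10791064 (- strand), Tspan17 chr13:54789255-54789404 (+ strand).
Prm1: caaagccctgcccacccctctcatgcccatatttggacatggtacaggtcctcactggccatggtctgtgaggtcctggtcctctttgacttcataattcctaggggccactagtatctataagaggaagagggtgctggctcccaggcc
Kif2b: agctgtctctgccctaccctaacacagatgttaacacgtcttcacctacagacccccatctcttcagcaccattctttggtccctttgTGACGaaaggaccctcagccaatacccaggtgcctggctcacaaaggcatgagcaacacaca
Ppm1j: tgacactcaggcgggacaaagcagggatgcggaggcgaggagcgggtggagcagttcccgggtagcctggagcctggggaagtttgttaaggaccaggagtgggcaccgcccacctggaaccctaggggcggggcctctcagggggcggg
Tnp1: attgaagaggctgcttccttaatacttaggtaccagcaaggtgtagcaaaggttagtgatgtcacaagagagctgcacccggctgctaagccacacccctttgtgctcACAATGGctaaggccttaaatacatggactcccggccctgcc
Prm3: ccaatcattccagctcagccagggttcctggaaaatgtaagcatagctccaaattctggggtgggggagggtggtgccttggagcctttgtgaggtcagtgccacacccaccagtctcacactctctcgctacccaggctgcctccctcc
Tspan17: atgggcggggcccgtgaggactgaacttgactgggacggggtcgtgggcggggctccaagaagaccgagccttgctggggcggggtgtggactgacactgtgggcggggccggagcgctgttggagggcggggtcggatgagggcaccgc

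The second set, with a strong peak only in spermatocytes or a region that fell after them, is shown for contrast, at Acsf3 chr8:122775336-122775485 (+ strand), Dscam chr16:97170736-97170885 (- strand), Pik3ip1 chr11:3330581-3330730 (+ strand), Fignl2 chr15:101054400-101054549 (- strand), Ptchd3 chr11:121830068-121830217 (+ strand), Msrb3 chr10:120898972-120899121 (- strand).
Acsf3: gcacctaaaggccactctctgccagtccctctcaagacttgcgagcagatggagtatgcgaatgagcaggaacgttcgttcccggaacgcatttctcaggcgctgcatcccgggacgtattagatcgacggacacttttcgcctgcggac
Dscam: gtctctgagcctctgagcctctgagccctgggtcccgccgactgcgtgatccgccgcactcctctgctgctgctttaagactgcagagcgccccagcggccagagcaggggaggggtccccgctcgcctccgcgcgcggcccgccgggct
Pik3ip1: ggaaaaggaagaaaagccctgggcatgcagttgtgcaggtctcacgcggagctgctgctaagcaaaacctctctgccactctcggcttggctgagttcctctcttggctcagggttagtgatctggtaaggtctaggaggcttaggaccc
Fignl2: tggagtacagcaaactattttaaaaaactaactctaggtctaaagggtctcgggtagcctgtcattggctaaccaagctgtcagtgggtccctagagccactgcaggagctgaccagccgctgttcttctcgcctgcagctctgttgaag
Ptchd3: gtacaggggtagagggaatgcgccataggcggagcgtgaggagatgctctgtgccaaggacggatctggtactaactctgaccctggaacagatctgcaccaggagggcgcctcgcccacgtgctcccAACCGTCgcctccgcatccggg
Msrb3: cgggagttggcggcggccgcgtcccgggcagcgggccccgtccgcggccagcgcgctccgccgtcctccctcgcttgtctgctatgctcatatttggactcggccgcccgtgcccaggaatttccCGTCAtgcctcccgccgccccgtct

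Regions with a peak kept only in spermatids lay mostly far from genes' starts. Compared with all regions they did so more often in lists of equal length, but not in the lists as deposited. Regions with a peak kept only in spermatocytes lay more often than these towards the ends of chromosomes. They also lay more often at promoters than the spermatid regions in lists of equal length, but not in the lists as deposited. A region kept at 1 stage only can still hold a weaker peak at the other. In lists of equal length, 2197 regions had a kept peak in both RS_KO libraries and neither PS_KO library, 5.76% of the 38169 regions with a kept peak, and 2647 regions (6.93%) had the reverse pattern. In the lists as deposited the counts were 3101 (1.45% of 213503 regions) and 991 (0.464%), and 104495 regions were seen only in RS_KO replicate 1, the longest list. A design of 2 against 2 libraries allows no two-sided exact p under 0.33, so these counts carry no test, and a missing peak means only that none passed the caller's threshold or the length limit. In bulk libraries, fewer cells with an open region and less signal per cell cannot be told apart. With 1 library left out, the rule of presence is looser by construction. In lists of equal length the spermatid count then moved by over 1.5 times without RS_KO replicate 1 (6440) and without RS_KO replicate 2 (7545), and the spermatocyte count without PS_KO replicate 1 (5505) and without PS_KO replicate 2 (7067). As deposited, the spermatid count was 7729, 6220 and 107596 without PS_KO replicate 1, RS_KO replicate 1 and RS_KO replicate 2, and the spermatocyte count 1677, 50250 and 5229 without PS_KO replicate 1, PS_KO replicate 2 and RS_KO replicate 1.

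Of the 2197 spermatid regions, 10.6% lay within 1000 bp of a TSS. By the authors' classes 31.7% lay in introns and 39.1% between genes, beside 22.8% and 26.4% of all 38169 regions. Of the 2647 spermatocyte regions, 25.0% lay within 1000 bp of a TSS, and of all 38169 regions 33.7% did. The median distance to the nearest TSS was 34352 bp for spermatid regions, 16070 bp for spermatocyte regions and 11996 bp for all regions. In the lists as deposited the shares at promoters were equal to the digits given. At a TSS lay 14.5% of the 3101 spermatid and 14.5% of the 991 spermatocyte regions, beside 9.84% of all 213503. The median distances were 23058, 17030 and 29463 bp. Introns then held 34.8% of the spermatid and 40.4% of all regions, and 30.7% and 31.3% lay between genes. Among the kept peaks of single libraries, 46.5% and 55.2% lay near a TSS in PS_KO and 41.3% and 52.1% in RS_KO, so the libraries of the stages overlapped in this share while the separated sets lay further apart.

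The wild-type libraries, which had no part in choosing these regions, showed the same order of stages. The wild-type spermatocyte libraries had a kept peak in 75.1% and 73.7% of the spermatocyte regions, and the wild-type spermatid libraries in 18% and 14.4%. For the spermatid regions the shares were 59.6% and 61.9% in RS_WT against 28.6% and 16.5% in PS_WT. As deposited, the spermatocyte regions had a peak in 84.5% and 51.3% in PS_WT and in 14.5% and 8.58% in RS_WT, and the spermatid regions in 39.6% and 37.4% in RS_WT and in 28.1% and 7.03% in PS_WT. In the 8 spermatogonial libraries, with lists of equal length, 4.32% to 5.37% of the spermatid regions and 12.7% to 17.7% of the spermatocyte regions had a kept peak, compared with 29.3% to 33.0% of all regions. As deposited this order against all regions turned: 8.22% to 26.4% of the spermatid and 8.78% to 36.9% of the spermatocyte regions had a peak, compared with 5.96% to 18.9% of all regions. The spermatogonia were of another age, so stage and age cannot be told apart there.

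The 5 spermatid regions with the strongest peaks away from genes' starts were 479 to 2556 bp long, and lay between genes, in an intron and upstream of a gene by the authors' classes. A region of 479 bp in an intron of Paxip1, a DNA damage response gene (chromosome 5, 27744815 to 27745293), had a fold enrichment of 6.76 and none in PS_KO and 30.3 and 16.9 in RS_KO. A region of 1524 bp between genes on chromosome 14 (9162783 to 9164306, which the authors assigned to Fhit) had 7.28 and none in PS_KO and 25.4 and 17.8 in RS_KO. The others lay on chromosomes 1 (35114704, assigned to Hs6st1), 7 (82251576, upstream of Sh3gl3) and 11 (32178036, assigned to Snrnp25), with 18.9 to 21.9 in RS_KO replicate 1 and a peak only in replicate 1 of PS_KO. The strongest distal regions kept only in PS_KO lay on chromosome 10 at 125388540 (assigned to Lrig3), with 38.0 and 21.7 in PS_KO and 4.92 and none in RS_KO, and at 128895272 (upstream of Gdf11 and Cd63), with 38.0 and 21.2 against 5.68 and none. Both lie within the last 10 Mb of that chromosome. The other 3, on chromosomes 14 (43274606), 13 (104821916) and 4 (155042623), had 25.5 to 33.3 in PS_KO replicate 1 and 15.8 to 17.9 in replicate 2.

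Chromosome ends held a large part of the regions kept only in spermatocytes. This pattern was looked for after the values had been seen and is given here without a test. Among the 2647 spermatocyte regions of the equal-length lists, 35.7% lay in the last 10 Mb of a chromosome and 14.6% in its first 10 Mb, where mouse autosomes have their centromere. Among the 2197 spermatid regions the shares were 5.14% and 2.41%, and among all 38169 regions 14.4% and 6.61%. On 19 of 19 autosomes, spermatocyte regions made up a larger share of all regions in the last 10 Mb than elsewhere. Narrowed to the last 5 Mb, the shares were 22.4% of spermatocyte, 1.96% of spermatid and 7.91% of all regions. The pattern was not carried by promoters: away from any TSS, 39.1% of the 1986 spermatocyte regions lay in the last 10 Mb, compared with 5.30% of the 1964 spermatid regions and 16.2% of all 25292 such regions. In the lists as deposited the last 10 Mb held 41.3% of the spermatocyte, 4.77% of the spermatid and 16% of all regions.

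**Figure D1:**
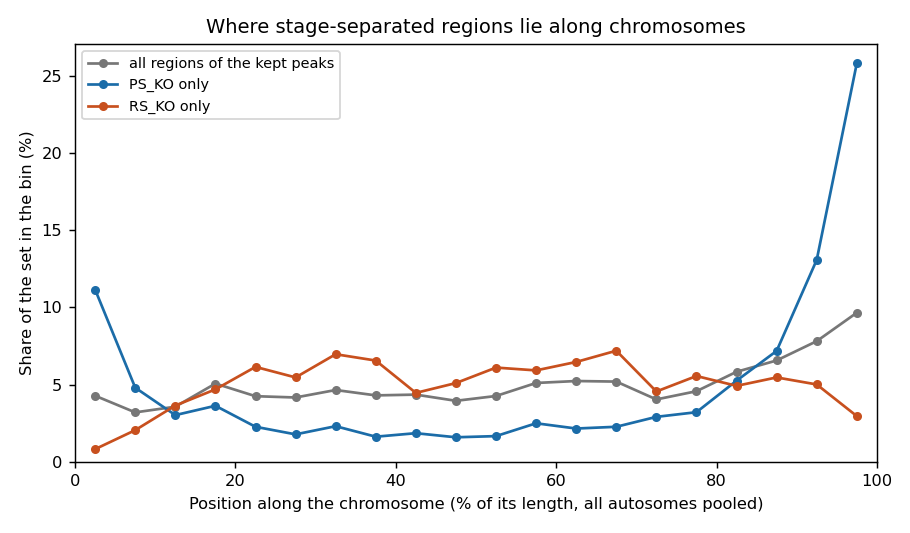
Share of each set of regions (vertical axis, %) in 20 bins of equal relative length along the chromosome (horizontal axis, % of chromosome length, 19 autosomes pooled, from the centromere end at 0), for regions of lists of equal length. Regions kept only in PS_KO pile up in the last bin (25.8%) and the first bin (11.1%), where all regions have 9.65% and 4.28% and regions kept only in RS_KO 2.96% and 0.819%.

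The same shift was visible in whole peak lists and in both genotypes. Of the 21734 kept peaks, 18.8% and 16.4% lay in the last 10 Mb in PS_KO and 8.93% and 9.86% in RS_KO, so the libraries of the stages did not overlap. PS_WT stood at 16.6% and 19.6%, and RS_WT at 10.6% and 10.8%. The 8 spermatogonial libraries lay between 8.91% and 10.3%, beside the spermatids. In the lists as deposited the shares were 27.2% and 16.4% in PS_KO and 8.80% and 9.93% in RS_KO, and the long list of PS_KO replicate 1 stood highest.

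**Figure D2:**
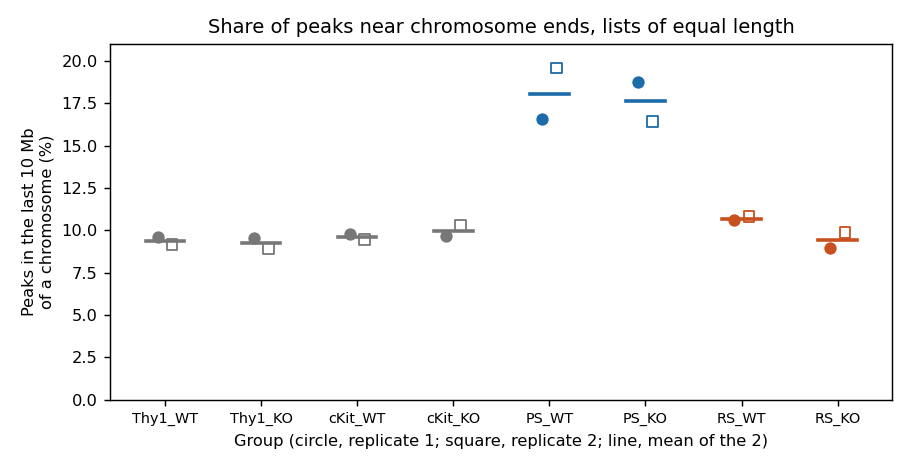
Share of peaks in the last 10 Mb of a chromosome (vertical axis, %) in each library (circle, replicate 1; square, replicate 2; line, mean of the 2) of the 8 groups, in lists of equal length. The 4 spermatocyte libraries lie between 16.4% and 19.6% and the other 12 between 8.91% and 10.8%; the list of cKit_KO replicate 2 is shorter than the others, with 17410 peaks.

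At promoters, more genes were kept only in PS_KO than only in RS_KO once the lists had the same length. A gene kept at 1 stage only can still hold a weaker peak at the other. RS_KO replicate 1 was cut at a −log10 q of 19.0, while the list of PS_KO replicate 2 was not shortened. A promoter was taken as open where a peak touched the 1000 bp on either side of a TSS. In lists of equal length, 204 of 20347 genes (1%) had a kept promoter peak in both RS_KO libraries and neither PS_KO library, and 626 (3.08%) had the reverse pattern. In the lists as deposited the order was the other way, with 285 genes (1.4%) only in RS_KO and 113 (0.555%) only in PS_KO, so the balance between stages depends on list length. A total of 8588 genes were open in all 4 lists of equal length and 7124 in none. With 1 library left out of the equal-length comparison, the spermatid count lay between 339 (without PS_KO replicate 1) and 756 (without RS_KO replicate 1), with 465 without PS_KO replicate 2 and 427 without RS_KO replicate 2. The spermatocyte count lay between 946 (without PS_KO replicate 2) and 1398 (without RS_KO replicate 2), with 1051 without PS_KO replicate 1 and 948 without RS_KO replicate 1. As deposited, the spermatid count was 1029, 439 and 1170 without PS_KO replicate 1, RS_KO replicate 1 and RS_KO replicate 2, and the spermatocyte count 725 and 976 without PS_KO replicate 2 and RS_KO replicate 1.

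The genes kept only in RS_KO with the strongest peaks included Prm1, which encodes protamine 1, the small basic protein that packs sperm DNA. At Prm1 (chromosome 16, TSS 10796823) the fold enrichment over the library's background was 3.64 and none in PS_KO, replicates 1 and 2, and 18.2 and 9.96 in RS_KO. Fam71d (chromosome 12, TSS 78691535), a testis gene linked to sperm motility, had 7.28 and no peak in PS_KO and 28.0 and 12.1 in RS_KO. Kif2b (chromosome 11, TSS 91577555), a kinesin that takes microtubules apart, had 7.80 and no peak in PS_KO and 22.7 and 11.3 in RS_KO. At each of the 3 promoters both spermatid values lay above both spermatocyte values. The choice of these promoters, by kept peaks and then by height, largely fixes this order, so it adds no evidence. Ppm1j, a PP2C-type protein phosphatase (chromosome 3, TSS 104781056), stood at 6.24 and no peak in PS_KO and at 21.9 and 9.96 in RS_KO. Hist1h1c, a linker histone gene of the Hist1 cluster, had 6.24 and no peak in PS_KO and 14.4 and 9.53 in RS_KO. Fgd4, an activator of the small GTPase Cdc42, 4933417G07Rik and the glycosyltransferase gene Galnt18 also belonged to this group, with the lower of their RS_KO values between 8.23 and 9.53.

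The strongest entry of this group was a promoter shared with a ribosomal protein gene, and the wild type did not follow the knockout there. Snord100, a small nucleolar RNA gene hosted by Rps12, had no peak in either PS_KO library and 29.1 and 19.5 in RS_KO. In the wild type it was open at both stages, with 22.7 and 16.6 in PS_WT and 27.7 and 21.4 in RS_WT. Kif2b also had a strong peak in wild-type spermatocytes, at 33.0 and 9.05. These values are given side by side, since presence in 2 libraries per group allows no test of a difference between genotypes.

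The genes kept only in PS_KO in lists of equal length were of mixed function. The 10 with the strongest peaks all lay in the first or last 10 Mb of a chromosome. Of these 10, only Pik3ip1 had no peak in either RS_KO list as deposited. Dscam (chromosome 16, TSS 97170735), a cell adhesion molecule of the nervous system, had a fold enrichment of 23.9 and 14.7 in PS_KO and 4.92 and none in RS_KO. Pik3ip1 (chromosome 11, TSS 3330731), an inhibitor of PI3-kinase, had 16.1 and 14.7 in PS_KO and no peak in RS_KO. Acsf3 (chromosome 8, TSS 122775505), a mitochondrial acyl-CoA synthetase, had 16.6 and 15.8 in PS_KO and 8.70 and none in RS_KO. Again both values of the stage with the kept peak lay above both of the other, which the choice of the promoters largely fixes. The other 7 were the mitochondrial carrier Slc25a10, the tRNA-modifying enzyme Alkbh8, the protease cathepsin F (Ctsf), Cwf19l2, Plekhn1, Spryd4 and Ttc34, each with 14.1 or 14.7 in PS_KO replicate 2 and with 19.2 to 28.6 in PS_KO replicate 1. Their RS_KO values ran from 3.41 to 9.08 in replicate 1, and only Slc25a10 and Cwf19l2 had a peak in replicate 2, at 3.90 each. Alkbh8 and Cwf19l2 start at 3335231 and 3404085 of chromosome 9, close to its first mapped bases, and Plekhn1 and Ttc34 at 156228542 and 154856200 of chromosome 4, within the last 5 Mb.

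**Figure D3:**
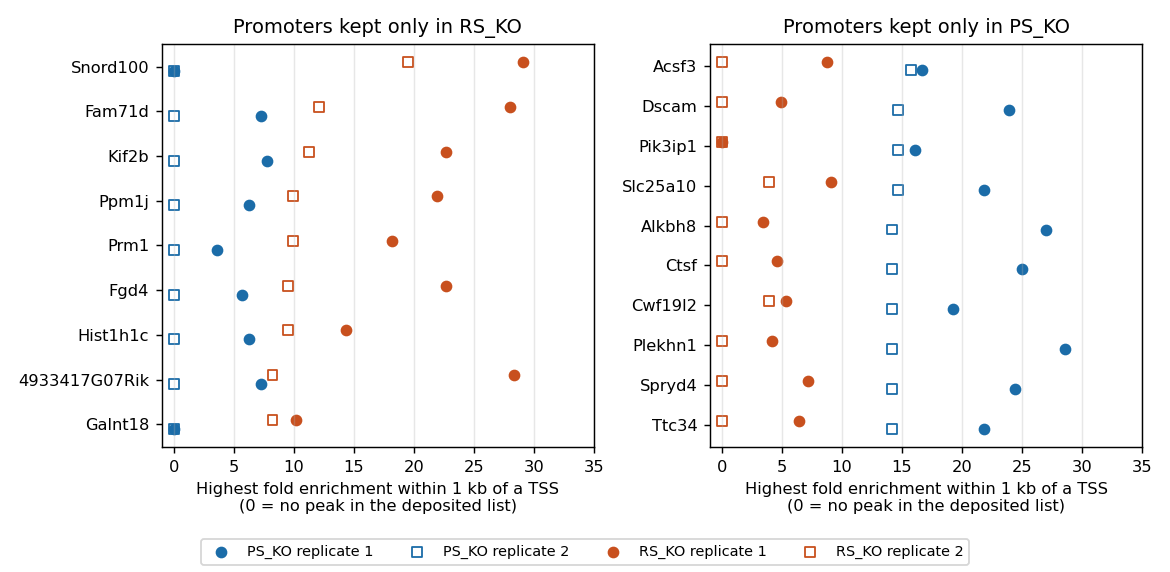
Highest fold enrichment within 1000 bp of a TSS (horizontal axis, a ratio to the library's background; 0 marks no peak in the deposited list) in the 4 knockout libraries, for 9 of the 10 promoters kept only in RS_KO (left) and the 10 kept only in PS_KO (right) with the highest lower value. Filled circles are replicate 1 and open squares replicate 2. In each row the 2 libraries of the named stage lie to the right of the 2 of the other stage. The choice of the promoters largely fixes this order.

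Over all 204 genes kept only in RS_KO (spermatid-only) and 626 kept only in PS_KO (spermatocyte-only), the wild type showed the same order of the stages. RS_WT had a kept promoter peak at 66.7% and 76.0% of the 204 genes and PS_WT at 27.0% and 22.5%. PS_WT had one at 82.4% and 84.0% of the 626 genes and RS_WT at 25.9% and 24.3%. In spermatogonia 17.6% to 23.0% of the spermatid-only and 34.8% to 45.7% of the spermatocyte-only promoters had a kept peak, while 51.0% to 57.1% of all 20347 promoters did. Those shares are of lists of equal length. As deposited, 34.4% to 69.5% of the spermatid-only and 36.3% to 81.4% of the spermatocyte-only promoters had a peak in spermatogonia, beside 51.5% to 74.8% of all promoters. Of the spermatocyte-only genes, 25.6% lay in the last 10 Mb of a chromosome, against 4.41% of the spermatid-only genes and 10.3% of all genes.

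Fold enrichment could also be compared where all 4 libraries had a peak, in 12643 regions of which 9307 lay at a TSS. Each library was centred on its median over these regions, since these medians, 18.7 and 9.24 in PS_KO and 18.5 and 7.79 in RS_KO, followed the replicate and not the stage. In limma 307 regions (2.43%) were higher in RS_KO and 325 (2.57%) higher in PS_KO at an adjusted p under 0.05 (Benjamini-Hochberg over the 12643 regions), with a median difference of 1.42 and −1.21 on the log2 scale. The prior degrees of freedom of this fit were infinite. Each SE and p given for a region therefore comes from the variance trend pooled over all regions, and does not measure the spread between that region's own replicates. At a TSS lay 75 of the 307 regions that rose in spermatids and 239 of the 325 that fell. In 305 and 321 of them the centred values of the stages did not overlap, which was also so in 22.3% and 21.4% of all regions tested. No region was called when the libraries were not centred or when limma's trend of the variance with the mean was left out, and quantile normalization left 69 and 73 regions. Leaving out 1 library leaves a stage with a single library, which is then assumed to vary like the other stage, with the spread pooled over regions. It left 89 to 302 regions higher in RS_KO (173 without PS_KO replicate 1, 101 without RS_KO replicate 1, 89 without RS_KO replicate 2) and 66 to 277 higher in PS_KO (96 without PS_KO replicate 1, 196 without PS_KO replicate 2, 66 without RS_KO replicate 1).

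**Figure D4:**
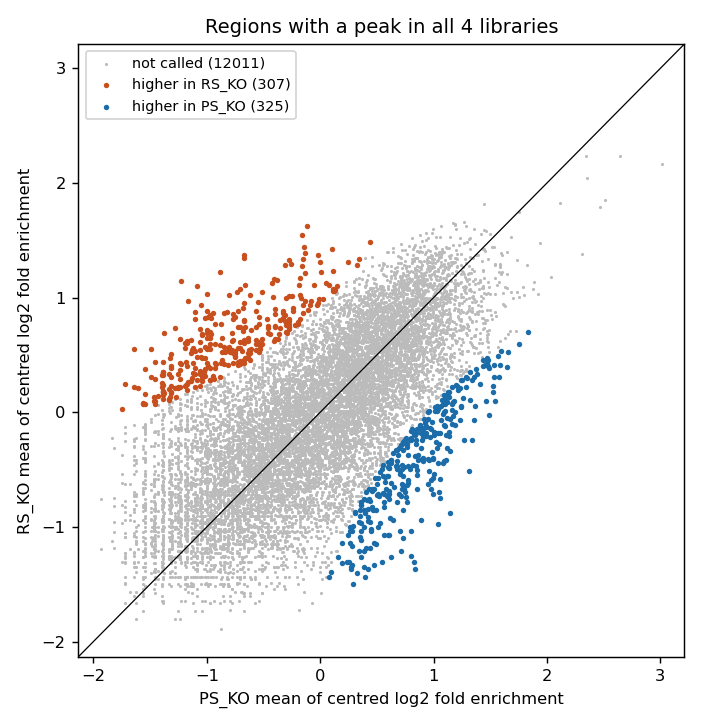
Mean centred log2 fold enrichment in PS_KO (horizontal axis) and RS_KO (vertical axis) of the 12643 regions with a peak in all 4 libraries; each point is a region, the line marks equal values, and colours mark the regions called by limma at an adjusted p under 0.05. The 307 regions higher in RS_KO and the 325 higher in PS_KO lie at least 0.94 log2 units from the line of equal values, measured along an axis.

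The promoters that rose in spermatids included genes of the histone-to-protamine exchange. Tnp1 (region at chromosome 1, 73011658 to 73016433, which also covers 1700027A15Rik) encodes transition protein 1, which takes the place of histones before the protamines. Its fold enrichment was 7.80 and 4.35 in PS_KO and 27.2 and 12.6 in RS_KO, a centred difference of 1.80 ± 0.388 (log2, SE; limma adjusted p = 0.000529), with an adjusted p of 0.0686 without RS_KO replicate 1. The region at Prm2 and Prm3 (chromosome 16, 10790487 to 10792570), protamine 2 and protamine 3, had 7.28 and 3.80 in PS_KO and 28.0 and 9.96 in RS_KO, a difference of 1.80 ± 0.421 (adjusted p = 0.00200), and 0.250 without RS_KO replicate 1. After centring, both spermatid libraries lay above both spermatocyte libraries in each of these regions. The window of Prm3 also holds a stronger region, whose difference was −0.26 ± 0.313 and did not pass the test (limma adjusted p = 0.782).

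Other promoters that rose in spermatids belonged to genes of varied function. At Tspan17, a tetraspanin (chromosome 13, 54788883 to 54789767), the values were 8.32 and 4.89 in PS_KO and 21.9 and 16.9 in RS_KO, a difference of 1.72 ± 0.370 (limma adjusted p = 0.000493), which was 0.20 without RS_KO replicate 2. At Cftr, the chloride channel gene mutated in cystic fibrosis, they were 10.9 and 5.43 in PS_KO and 28.8 and 16.5 in RS_KO, a difference of 1.63 ± 0.338 (adjusted p = 0.000283), which was 0.0784 without RS_KO replicate 2. At Klf7, a Krüppel-like transcription factor, they were 8.32 and 7.61 in PS_KO and 26.5 and 18.6 in RS_KO, a difference of 1.61 ± 0.33 (adjusted p = 0.000280), which was 0.0542 without PS_KO replicate 1 and 0.144 without RS_KO replicate 2. Tmem220, Lrrc72, 4930448F12Rik, Elavl3 (an RNA-binding protein of neurons) and 4922502H24Rik made up the 10 largest differences at a TSS, from 1.60 to 1.82. In all 5, leaving out RS_KO replicate 1 ended the call, at adjusted p values of 0.0706 to 0.795. Without PS_KO replicate 1 the calls at Tmem220, Elavl3 and 4922502H24Rik were lost too (0.0624, 0.107 and 0.369), and without RS_KO replicate 2 those at Tmem220 and Elavl3 (0.0799 and 0.349).

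The 10 promoters with the largest falls from spermatocytes to spermatids all lay in the last 10 Mb of a chromosome. At Fignl2, a fidgetin-like ATPase gene (chromosome 15, 101052537 to 101054076), the fold enrichment was 30.7 and 17.9 in PS_KO and 4.16 and 5.20 in RS_KO. The centred difference was −2.20 ± 0.386 (log2, SE; limma adjusted p = 1.26e-05), with an adjusted p of at most 0.0495 when 1 library was left out. At Samd10 (chromosome 2, 181598363 to 181599443) the values were 32.8 and 22.3 in PS_KO and 7.19 and 5.20 in RS_KO, a difference of −2.01 ± 0.339 (adjusted p = 3.90e-06), and at most 0.0137 with a library left out. At both genes even the lower spermatocyte value was more than the higher spermatid value, before any centring. Ptchd3, a patched-domain gene of sperm (chromosome 11, 121828236 to 121834654), had 43.7 and 12.5 in PS_KO and 6.81 and 3.46 in RS_KO, a difference of −2.14 ± 0.380 (adjusted p = 1.86e-05), and 0.239 without PS_KO replicate 1. Sox18, a transcription factor of blood vessels (chromosome 2, 181669988 to 181672054), had 38.5 and 13.6 in PS_KO and 4.92 and 5.20 in RS_KO, a difference of −2.05 ± 0.378 (adjusted p = 3.39e-05), with 0.150 without PS_KO replicate 1 and 0.0599 without RS_KO replicate 1.

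The neural microRNA gene Mir124a-3, the mechanosensitive channel gene Piezo1, Gm17296, the transporter gene Slc6a20a and the methionine sulfoxide reductase gene Msrb3 followed, with differences of −1.92 to −1.83. Mir124a-3 lies at 180892540 of chromosome 2, in its last 5 Mb, as do Samd10 and Sox18. Over all 325 regions that fell, 56.9% lay in the last 10 Mb of a chromosome and 27.1% in the first 10 Mb, compared with 11.2% and 6.26% of the 12643 tested and with 6.51% and 1.95% of the 307 that rose. Each of these 5 calls was lost without at least 1 library, Mir124a-3 and Slc6a20a without PS_KO replicate 1 (limma adjusted p of 0.0812 and 0.344), Piezo1 without PS_KO replicate 2 (0.238) and without RS_KO replicate 1 (0.208), and Gm17296 and Msrb3 without RS_KO replicate 1 (0.149 and 0.0560).

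Away from any TSS the largest rise was in an intron of Hs3st3b1, a heparan sulfate sulfotransferase gene (chromosome 11, 63912573 to 63913563). Its fold enrichment was 7.28 and 4.35 in PS_KO and 34.8 and 20.4 in RS_KO, a difference of 2.37 ± 0.348 (log2, SE; limma adjusted p = 1.15e-07), which was at most 0.00494 with a library left out. The region near Fam174b (chromosome 7, 73714593 to 73715860) had 7.80 and 4.89 in PS_KO and 30.7 and 21.7 in RS_KO, a difference of 2.19 ± 0.342 (adjusted p = 3.91e-07), and that near Kcns2 (chromosome 15, 34792994 to 34793897) had 10.4 and 4.89 and then 40.5 and 19.5, a difference of 2.11 ± 0.325 (adjusted p = 3.84e-07). The adjusted p of these 3 stayed under 0.05 with each library left out, under the same assumption on the spread. The region near Gng12 rose by 2.14 and lost the call without RS_KO replicate 2 (adjusted p = 0.0516). The largest distal fall was near 2010315B03Rik (chromosome 9, 124281822 to 124282956), near the end of that chromosome, from 48.9 and 17.4 to 9.84 and 4.33, a difference of −2.03 ± 0.328 (adjusted p = 1.33e-06), at most 0.0146 with a library left out. The next 4, at D930007P13Rik, Agap2, Taf1c and Tob2, fell by 1.84 to 1.73, and all 4 lost the call without PS_KO replicate 1 (adjusted p of 0.243 to 0.803) and without RS_KO replicate 1 (0.0531 to 0.251), and Agap2 and Taf1c also without PS_KO replicate 2 (0.121 and 0.126).

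RefSeq's start can differ by some bases from that in the files, and the stretch shown for Fignl2 lies just beyond its open region. Of the spermatid promoters shown, Tnp1 held the SOX letters and Kif2b the short CRE letters, and of the spermatocyte promoters Msrb3 held the short CRE and Ptchd3 the short MYB letters. In the window from 250 bases before to 50 after the TSS, the SOX letters occurred in 444 of 15323 promoters (2.90%), the short CRE in 26.1% and the short MYB motif in 7.41%. Among promoters kept only in RS_KO the SOX letters were found in 21 of the 145 with a sequence, and among those kept only in PS_KO in 17 of 453. The table matched 71.1% of the 204, 72.4% of the 626 and 75.3% of all genes, under the 80% needed, so a comparison of motifs or base composition between these sets is void and none is drawn. A match is a run of letters, and whether any factor binds there was not tested.

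No region was called as differing between genotypes in its stage difference. A limma interaction, the knockout step minus the wild-type step, was fitted over the 10436 regions with a peak in all 8 adult libraries and called 0 regions (0%), with 95 at an unadjusted p under 0.05 and a smallest adjusted p above 0.99. Of the regions that rose in RS_KO, 239 could be read in the wild type, and 239 of these had a wild-type difference above 0, with a median of 1.01 beside 1.39 in the knockout. Of those that fell, 282 could be read and 279 had a wild-type difference below 0, with a median of −1.02 beside −1.17. Over all 10436 regions, 5631 had a wild-type difference above 0, with a median of 0.05. Absence of a call does not show that the steps were alike, and the wild-type libraries did not take part in choosing the regions. The choice by the knockout difference enlarges the knockout medians, so the medians of the genotypes cannot be compared in size.

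Spermatid chromatin genes had more open promoters in both RS_KO libraries than in either PS_KO library when the lists had the same length. Of 13 protamine, transition protein and spermatid histone genes, 46.2% and 76.9% had a kept promoter peak in PS_KO and 92.3% and 92.3% in RS_KO, beside 53.8% and 57.0% and then 48.6% and 54.8% of all genes. In the lists as deposited the shares were 100% and 76.9% in PS_KO and 100% and 92.3% in RS_KO, so the stages overlapped. Prm1, Hils1 and H1fnt, the last 2 being linker histones of spermatids, were kept only in RS_KO. These are 3 of 13 genes, and 0 were kept only in PS_KO, beside 1% and 3.08% of all genes. Of the 9 members with a promoter peak in all 4 libraries, 2 rose (Prm2 and Tnp1) and none fell, with a median difference of 0.13, beside 0.77% and 2.56% of the 10259 genes so tested and their median of −0.01. Hils1 had 7.28 and no peak in PS_KO and 18.9 and 4.76 in RS_KO, and H1fnt 3.64 and none in PS_KO and 15.9 and 6.06 in RS_KO. The bromodomain gene Brdt, needed for histone eviction, stood at 17.7 and 5.98 in PS_KO and at 19.7 and 8.23 in RS_KO, a difference of 0.44 ± 0.362 that did not pass the test (limma adjusted p = 0.636). Prm2, Prm3 and Tnp2 share peaks in their windows, as do Hist1h2ba and Hist1h2aa, so these genes are not independent. The windows of Prm3 and Tnp2 also hold a stronger region, whose difference was −0.26 ± 0.313 and did not pass the test (limma adjusted p = 0.782).

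Among 18 spermatid transcription and translation regulators, 83.3% and 83.3% were kept in PS_KO and 88.9% and 88.9% in RS_KO. Fhl5, which encodes the CREM coactivator ACT, had 5.72 and no peak in PS_KO and 15.9 and 4.33 in RS_KO, and Klf17 had 5.20 and no peak in PS_KO and 15.1 and 6.93 in RS_KO. Spz1, a transcription factor gene of the testis, rose by 1.22 ± 0.397 (limma adjusted p = 0.0441), from 10.9 and 4.35 to 25.0 and 8.66, and lost the call without any 1 of the 4 libraries (adjusted p of 0.0615 to 0.467). The promoter of Crem itself stood at 42.1 and 19.0 in PS_KO and 27.2 and 13.9 in RS_KO, that of Rfx2 at 28.1 and 14.7 and at 34.8 and 21.7, and neither passed the test (limma adjusted p = 0.603 and 0.397). Most of these regulators were thus open at both stages, and 15 of 18 in all 4 libraries.

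The acrosome and tail genes divided. Of 34 acrosome and sperm-egg fusion genes, 67.6% and 50.0% were kept in PS_KO and 55.9% and 50.0% in RS_KO, and of 50 tail and motility genes 68.0% and 54.0% in PS_KO and 66.0% and 52.0% in RS_KO. In the acrosome list Capza3, an actin-capping protein of sperm, was kept only in RS_KO, whereas Actl9, Adam2 and Adam3 were kept only in PS_KO. These are 1 and 3 of 34 genes, beside 1% and 3.08% of all genes. Prss37 was in both RS_KO lists and neither PS_KO list as deposited. Pdilt, a chaperone of the spermatid endoplasmic reticulum, rose from 8.84 and 4.89 to 31.8 and 8.23, by 1.43 ± 0.389 (limma adjusted p = 0.0109), and 0.510 without RS_KO replicate 1. Adam3, a sperm surface protein, had 17.7 and 6.52 in PS_KO and 5.30 and no peak in RS_KO.

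In the tail list 5 of 50 genes were kept only in RS_KO and 6 only in PS_KO, beside 1% and 3.08% of all genes. Smcp, the cysteine-rich protein of the sperm mitochondrial capsule, had no peak in PS_KO and 14.0 and 5.20 in RS_KO. Oaz3, an antizyme made in spermatids, had none in PS_KO and 10.6 and 4.76 in RS_KO, and Fam71b none and 11.7 and 4.33. Gapdhs, the glycolytic enzyme of the sperm tail, had no peak in PS_KO and 9.46 and 6.93 in RS_KO, and was separated in the lists as deposited only. In the wild type Smcp had a peak at both stages, with 12.4 and 4.52 in PS_WT and 14.4 and 7.89 in RS_WT. Oaz3 and Gapdhs had a PS_WT peak in replicate 1 only, and Fam71b had none in PS_WT. Odf3 and Tekt5, proteins of the tail, were the other spermatid-only members. In the other direction Dnah17, an axonemal dynein, had 32.8 and 4.89 in PS_KO and no peak in RS_KO, and Odf4, Tekt1, Tekt2, Catsperg1 and Pgam2 were kept only in PS_KO. Spef2, needed for tail assembly, fell from 25.0 and 19.0 to 10.2 and 4.33, a log2 difference of −1.58 ± 0.351 (limma adjusted p = 0.000841), and 0.158 without PS_KO replicate 2.

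**Figure D5:**
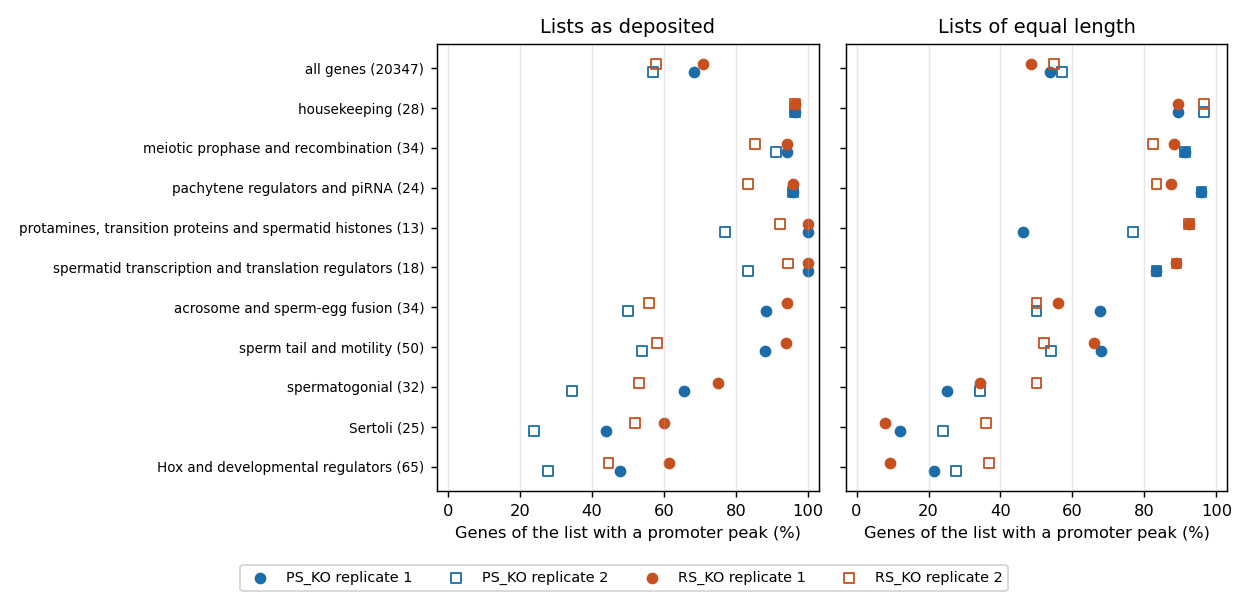
Share of the genes of each list with a promoter peak (horizontal axis, %; number of genes with a TSS in brackets) in the 4 knockout libraries, in lists as deposited (left) and of equal length (right). Filled circles are replicate 1 and open squares replicate 2. In lists of equal length the protamine list has 92.3% in both RS_KO libraries against 46.2% and 76.9% in PS_KO, while the acrosome and tail lists overlap between stages.

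Genes of meiosis kept most of their open promoters in spermatids. Of 34 meiotic prophase and recombination genes, 91.2% and 91.2% were kept in PS_KO and 88.2% and 82.4% in RS_KO. In all 4 libraries 29 had a promoter peak, and none of these was called. Over all 10259 genes so tested 0.77% rose and 2.56% fell, so a list of this size would hold few calls or none. Sycp3, an axis protein of the synaptonemal complex, stood at 30.7 and 10.3 in PS_KO and 30.7 and 8.66 in RS_KO, and Sycp1, its transverse filament protein, at 32.2 and 13.0 and at 24.6 and 8.23. The telomere attachment gene Majin, listed as 1700123I01Rik, was kept only in PS_KO, at 8.32 and 6.52 against 4.54 and no peak in RS_KO. Of 24 pachytene regulators and piRNA genes, 95.8% and 95.8% were kept in PS_KO and 87.5% and 83.3% in RS_KO, beside 53.8% and 57.0% and then 48.6% and 54.8% of all genes. Tcfl5, a transcription factor gene of pachytene cells, fell from 36.4 and 14.7 to 17.0 and 6.93, a log2 difference of −0.96 ± 0.315 (limma adjusted p = 0.0475), and lost the call without any 1 of the 4 libraries (adjusted p of 0.0568 to 0.315). Mybl1, the master regulator of pachytene piRNA genes, stood at 45.2 and 14.7 in PS_KO and 23.1 and 15.6 in RS_KO and did not pass the test (adjusted p = 0.727). Ldhal6b, a lactate dehydrogenase of the testis, was kept only in PS_KO, at 35.9 and 12.5 against 9.46 and no peak in RS_KO.

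Promoters of spermatogonial genes overlapped between the stages in how often they were open. Of 32 genes, 65.6% and 34.4% had a promoter peak in PS_KO and 75.0% and 53.1% in RS_KO as deposited, beside 68.4% and 57.0% and then 70.9% and 57.8% of all genes, and in lists of equal length 25.0% and 34.4% and then 34.4% and 50.0%. Zbtb16 and Dmrt1, transcription factors of undifferentiated spermatogonia, had no peak in PS_KO and 7.19 and 4.76, and 10.6 and 7.36, in RS_KO. These are 2 of 32 genes as deposited, with 0 the other way, beside 1.4% and 0.555% of all genes. In lists of equal length the counts were 1 (Dmrt1) and 0, beside 1% and 3.08% of all genes. Of the 7 members tested in limma, 1 rose and 1 fell, beside 0.77% and 2.56% of all 10259 genes so tested. Foxo1, a regulator of spermatogonial stem cells, rose by 1.03 ± 0.312 (limma adjusted p = 0.0278), from 18.7 and 8.15 to 34.1 and 15.6, so that the stages separated only after centring. Rarg, a retinoic acid receptor, fell from 28.6 and 13.6 to 10.2 and 4.76, a difference of −1.25 ± 0.348 (adjusted p = 0.0135). Foxo1 lost its call without any 1 of the 4 libraries (adjusted p of 0.0826 to 0.263), and Rarg without PS_KO replicate 1 (0.175), PS_KO replicate 2 (0.0813) or RS_KO replicate 1 (0.251).

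Markers of Sertoli cells, the somatic nurse cells of the tubule, had a promoter peak more often in both RS_KO libraries than in either PS_KO library as deposited, but not in lists of equal length. Of 25 genes, 44.0% and 24.0% had a promoter peak in PS_KO and 60.0% and 52.0% in RS_KO as deposited, beside 68.4% and 57.0% and then 70.9% and 57.8% of all genes, and 12% and 24.0% against 8% and 36.0% in lists of equal length. Their summed fold enrichment was 76.9 and 44.0 in PS_KO and 111 and 70.6 in RS_KO. Sox9, Wt1, Gata6, Inha and Dmrt1 had a peak in both RS_KO lists as deposited and in neither PS_KO list, and Espn the reverse. These are 5 and 1 of 25 genes, beside 1.4% and 0.555% of all genes. Dmrt1 is also in the spermatogonial list, and Gata6 in that of developmental regulators. In lists of equal length the counts were 1 (Dmrt1) and 0, beside 1% and 3.08%. The defining markers Fshr, Trf, Cst9 and Cst12 had no peak in any of the 4 libraries. The part of such cells in the results was not tested. Of 10 immune genes 1 had a peak, in RS_KO replicate 1 alone, with Ptprc and Csf1r at none. Of 12 Leydig genes 50.0% and 33.3% had a promoter peak in PS_KO and 33.3% and 33.3% in RS_KO, with Cyp11a1, Cyp17a1 and Hsd3b1 at none, of 12 endothelial genes 33.3% and 16.7% and then 41.7% and 16.7%, with Pecam1 and Cdh5 at none, and of 12 peritubular and smooth muscle genes 41.7% and 8.33% and then 58.3% and 33.3%. Open members were the Leydig genes Fdx1, Scarb1 and Nr4a1 and the endothelial gene Cldn5 in all 4 libraries, Lhcgr and Flt1 in both PS_KO libraries and no RS_KO library, and Kdr the reverse.

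Developmental regulators, the class of genes on which Polycomb proteins are best known to act, had separated members in both directions. In lists of equal length 1 of 65 was kept only in RS_KO and 3 only in PS_KO, near the 1% and 3.08% of all genes. As deposited the counts were 5 and 1, beside 1.4% and 0.555% of all genes. Of 65 Hox and other developmental genes, 47.7% and 27.7% had a promoter peak in PS_KO and 61.5% and 44.6% in RS_KO as deposited, beside 68.4% and 57.0% and then 70.9% and 57.8% of all genes. In lists of equal length they were 21.5% and 27.7% against 9.23% and 36.9%, beside 53.8% and 57.0% and then 48.6% and 54.8% of all genes, so the stages overlapped both ways. Hoxd13, Foxd3, Tbx2, Wnt3a and Gata6 had a peak in both RS_KO lists as deposited and neither PS_KO list, with fold enrichments of 3.78 to 9.08. Dlx2 was kept only in RS_KO, at 15.1 and 7.36 against 7.28 and no peak in PS_KO. Sox1 had 11.4 and 8.15 in PS_KO and no peak in RS_KO, and Isl1 (23.4 and 12.0 in PS_KO, 8.33 and no peak in RS_KO) and Hoxc10 (26.5 and 4.89, then 7.95 and no peak) were also kept only in PS_KO. Of the 13 members open in all 4 libraries none was called, at a median difference of 0.09, beside 0.77% that rose and 2.56% that fell of all 10259 genes so tested. The promoters of 30 Polycomb complex genes were nearly all open, 28 of 30 in all 4 libraries. Rybp, a subunit of Polycomb repressive complex 1, rose by 1.07 ± 0.314 (limma adjusted p = 0.0213), from 20.3 and 12.0 to 39.7 and 22.5, and lost the call without any 1 of the 4 libraries (adjusted p of 0.0571 to 0.479). None of the other 27 was called. At the shares over all genes, lists of this size, this one and the next, would hold few calls or none. Of the 27 housekeeping genes open in all 4 libraries, 1 fell: Chmp2a, a subunit of the ESCRT membrane machinery, with a difference of −1.19 ± 0.366 (adjusted p = 0.0312), a call also lost without any 1 library (0.0916 to 0.401).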

How the data were processed

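ATAC-seq was read from the authors' peak lists, 1 for each of 16 libraries, made with Bowtie 1.1.1 and MACS2 2.1.0.20140616 on mm10, per the submitters' processing notes. The caller's options were not given in the sources used here, nor are read numbers. Per the file headers, each deposited row holds a peak's pileup (a coverage signal), −log10 p and −log10 q, and the fold enrichment, a ratio. From the values, this ratio is (pileup + 1) over 1 background per list plus 1. The labels give 250000 spermatocytes or 1000000 spermatids per library, fragments cut from a gel, and single reads of 75 bp.

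The members and the gene lists were chosen with earlier results of these data known, so list counts are descriptions. Rows with equal coordinates were joined, with the row of the highest fold enrichment kept, and only chromosomes 1 to 19 were used. Overlapping peaks of the 4 knockout lists were merged into 213503 regions. Equal lists held the 21734 peaks with the highest −log10 q, and the lowest kept value was 10.5 and 2.09 in PS_KO and 19.0 and 3.27 in RS_KO. Promoters were windows of 1000 bp on either side of 22378 TSS positions of 20347 genes, as the deposited lists annotate them. Fold enrichment was compared with limma 3.58.1 in R 4.3.3 on log2 values centred on each library's median, with a variance trend, and p-values adjusted by Benjamini-Hochberg at 0.05. Counts and figures were made with Python 3.11.15, numpy 2.4.6, pandas 2.3.3 and matplotlib 3.10.9, and the scripts were tested on simulated data. Named items were, in each direction, the 10 promoters and 5 distal regions separated in equal lists with the highest lower fold enrichment, the 10 regions at a TSS and 5 distal regions with the largest limma difference among those called, and the members of the gene lists that were separated or called. Members that were neither were named for their roles. A few items that this rule names are not reported here. Chromosome ends were examined after the values had been seen. The alternatives were stricter peak thresholds, shorter lists, narrowed peaks, a 500 bp window, other normalizations, a replicate block and leaving out each library. The precision of a value per peak cannot be given without read numbers.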

Additional observations from a re-analysis of the deposited data

How the results depend on the processing

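The limma differences named kept their direction under every alternative run. Which stage had more separated promoters turned with the list length, and also, as deposited, at a fold enrichment of 5 or more (195 in RS_KO and 274 in PS_KO). Regions separated as deposited numbered 1675 (RS_KO) and 628 (PS_KO) at −log10 q of 5 or more and 1310 in RS_KO at a fold enrichment of 5 or more, and with 1 library left out 3381 to 107596 and 1093 to 50250. In equal lists they numbered 1683 in PS_KO at −log10 q of 5 or more, 1175 and 1340 in shorter lists of 10867 peaks, and 2873 to 7545 and 3801 to 7067 with 1 library left out. Promoters separated as deposited numbered 418 to 1170 and 156 to 976 with 1 library left out, and in equal lists 339 to 756 and 946 to 1398. Leaving out a library loosens the rule by construction.

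The limma counts were 69 and 73 after quantile normalization, 0 and 0 without centring (24 and 50 at an unadjusted p under 0.05) and 0 and 0 without the variance trend (843 and 791), and 89 to 302 and 66 to 277 with 1 library left out; the cause was not tested. With the replicate number as a block they were 634 and 636, including all 632 calls made without it. Over the 12643 regions, the difference of replicate 1 minus replicate 2 in PS_KO had a correlation of 0.35 with that in RS_KO. The labels do not say that a replicate number marks a shared animal or day. Of the 38 regions named for a call, 6 were called in every fit with 1 library left out, 19 after quantile normalization and 38 with the block. The interaction called 0 regions in every fit run.

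RS_KO minus PS_KO in the share of open promoters went, from lists as deposited to equal lists, from 7.69 to 30.8 percentage points for protamine genes, 22 to 4 for Sertoli, 4.17 to −12.5 for endothelial, 3.33 to −3.33 for Polycomb (6.67 without RS_KO replicate 2) and 15.4 to −1.54 for developmental genes. It also changed sign for acrosome (5.88 to −5.88) and tail genes (5 to −2). For these shares, leaving out 1 library was run on the lists as deposited only, not on equal lists. The first 5 differences as deposited then lay between −3.85 and 19.2, 12 and 32, −8.33 and 16.7, 0 and 6.67, and 5.38 and 25.4. The difference in the share of peaks in the last 10 Mb, PS_KO minus RS_KO, was 8.21 points, 12.4 as deposited, 5.51 for the last 5 Mb and 7.03 to 9.38 with 1 library left out. Read numbers are unknown, so how depth limits presence in the shorter lists was not tested.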

Other observations

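Peaks were also spread unevenly over whole chromosomes between the stages, in lists of equal length. Chromosome 1 held 5.80% and 6.12% of the peaks in PS_KO and 7.40% and 7.42% in RS_KO, so the stages did not overlap. It held 8.51% of the regions kept only in RS_KO and 3.74% of those kept only in PS_KO, beside 7.02% of all regions. Chromosome 10 held 5.08% and 5.00% in PS_KO and 3.94% and 4.37% in RS_KO. In the wild type the shares of chromosome 10 were 5.76% and 5.33% in PS_WT and 5.34% and 6.03% in RS_WT, and overlapped. Chromosome 15 held 7.18% of the regions kept only in PS_KO and 3.78% of those kept only in RS_KO, and chromosome 19, 4.80% and 2.41%. These chromosomes were picked after their values were seen, and no test was made.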
